A study of Rattus norvegicus with 23 samples.

Results

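The vasopressin gene Avp, the oxytocin gene Oxt, their receptor genes Avpr1a and Oxtr, and the genes of 2 peptides of the lateral hypothalamus, Pmch for melanin-concentrating hormone and Hcrt for the orexins, were followed array by array in RNA of the rat area postrema. A probe set was taken where the platform annotation gave it exactly 1 gene symbol and that symbol was one of these 6. This gave 6 of 31042 probe sets, 1 per gene, and 6 of 14217 genes with such a probe set: 1387317_at for Avp, 1368312_at for Oxt, 1369664_at for Avpr1a, 1387710_at for Oxtr, 1368802_at for Pmch and 1387163_at for Hcrt. The genes had been picked from earlier results on the same arrays. Their levels, group differences and mutual correlations are therefore given as descriptions, and no p-value is printed for them.

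Vasopressin and oxytocin are short peptides cut from precursors that also contain a carrier protein, a neurophysin. The best known source of both is the magnocellular neurons of the paraventricular and supraoptic nuclei of the hypothalamus, whose axons release them into the blood from the posterior pituitary. Vasopressin retains water at the kidney and constricts vessels, and its synthesis is known to rise during dehydration. Smaller neurons of the paraventricular nucleus send oxytocin and vasopressin fibres to the dorsal vagal complex of the medulla. Melanin-concentrating hormone and the orexins are made by separate sets of neurons in the lateral hypothalamus and act on feeding and wakefulness. The area postrema is a sensory organ at the caudal end of the fourth ventricle, with leaky capillaries, that reads signals from the blood and is wired to the neighbouring nucleus of the solitary tract.

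The tissue came from male rats, and each of the 23 Affymetrix Rat 230 2.0 arrays carried RNA pooled from 5 animals. The spontaneously hypertensive rat (SHR, 5 arrays) and the Wistar Kyoto rat (WKY, 5 arrays), the strain commonly used as its control, were 10 to 13 weeks old and carried no further treatment in the labels. Sprague Dawley rats of 10 to 12 weeks were controls (4 arrays), were fasted for 48 h (5 arrays) or were dehydrated for 72 h (4 arrays). The labels worded the protocols of the strain arrays and of the Sprague Dawley arrays differently, so that strain and handling cannot be told apart between these sets. Nothing in the labels ties an array number in one group to the same number in another.

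Signals are the deposited linear intensities, scaled so that the trimmed mean of every array was 100. Array medians ran from 39.81 to 44.48. Of 15 listed marker genes of the area postrema and dorsal vagal complex, 12 were measured, and their summed signal lay between 3870.2 and 5034.1 on all arrays. Among them the calcitonin receptor Calcr read 95.6 to 166.0, the noradrenaline-synthesising enzyme Dbh 183.4 to 372.8 and the hindbrain patterning gene Hoxa5 1247.2 to 1887.1. The noradrenaline transporter Slc6a2 read only 3.5 to 25.2. Markers of the choroid plexus, a neighbour of the area postrema, summed to 225.2 to 436.8 on the strain arrays and to 351.9 to 8657.7 on the Sprague Dawley arrays. On the strain arrays their mean log2 level had a Pearson r of -0.07 with Avp and 0.16 with Hcrt, and on the Sprague Dawley arrays 0.05 and 0.33. Their part in any result was not tested.

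Avp and Oxt lie next to each other on rat chromosome 3, on opposite strands. Their RNAs moved together on these arrays (r = 0.98 over 23 arrays), so the 250 bases before each transcription start are shown, as given by RefSeq on the assembly GRCr8. The Avp stretch is chr3:138248523-138248772 on the minus strand and the Oxt stretch is chr3:138235504-138235753 on the plus strand, each written 5' to 3' in the direction of its gene. Capitals mark matches on either strand to AGGTCA, the core bound by many nuclear receptors, to CGTCA, the core of a cyclic AMP response element, and to CANNTG, the E-box.
Avp: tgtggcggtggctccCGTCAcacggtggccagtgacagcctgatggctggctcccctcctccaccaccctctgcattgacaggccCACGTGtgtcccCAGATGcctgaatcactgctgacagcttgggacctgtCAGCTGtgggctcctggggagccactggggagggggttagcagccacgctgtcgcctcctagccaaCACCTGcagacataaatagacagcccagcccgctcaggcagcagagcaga
Oxt: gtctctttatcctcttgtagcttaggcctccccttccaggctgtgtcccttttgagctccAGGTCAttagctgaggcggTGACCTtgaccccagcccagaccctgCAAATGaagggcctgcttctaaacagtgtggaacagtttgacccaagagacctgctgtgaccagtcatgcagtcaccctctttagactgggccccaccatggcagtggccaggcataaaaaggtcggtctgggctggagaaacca
The Oxt stretch held AGGTCA 2 times, 190 and 171 bases before the start and on opposite strands, 1 E-box and no CGTCA. The Avp stretch held CGTCA 1 time, 235 bases before the start, 4 E-boxes and no AGGTCA. Of 33465 rat promoter windows of the same length, 14.1 percent held AGGTCA, 18.2 percent CGTCA and 65.5 percent an E-box. The neighbouring genes thus shared only the E-box among these 3 motifs, and a match is a string of letters and not a measured binding site. An entry was found for 5 of the 6 genes, and the other stretches are not shown because those RNAs did not move as a pair.

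Avp ranged from near the bottom of an array to near its top within a single group. In WKY its signal was 16.2, 17.3, 266.1, 186.9 and 170.8 on arrays 1 to 5. In SHR it was 16.8, 9.2, 192.1, 1497.3 and 270.9. Arrays 1 and 2 of both strains were low, arrays 3 to 5 were high, and the strains overlapped over most of their range. The highest SHR array stood 163.2-fold above the lowest, and the gene sat at the 17.5th percentile of all probe sets on the one and at the 98.8th on the other. In bulk RNA of this kind, fewer cells of a type and less RNA per cell cannot be told apart.

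The Sprague Dawley arrays had no such low values. Controls read 168.4, 87.0, 75.2 and 94.1, and fasted rats 171.9, 117.3, 64, 47.3 and 72.9, so these groups overlapped. Dehydrated rats read 1286.6, 1298.9, 159.1 and 244.5. Dehydrated arrays 1 and 2 stood far above every control and fasted array, while array 3 lay below the highest of each of those groups and array 4 above them.

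Oxt followed the same arrays. Its signal in WKY was 26.4, 9.3, 480.6, 199.2 and 249.0, and in SHR 18.5, 18.7, 270.6, 3062.4 and 445.7. Arrays 1 and 2 of each strain were again low and SHR array 4 was again the highest, 165.9-fold above the lowest SHR array and at the 99.8th percentile of its array. Controls read 214.2, 81.6, 69.0 and 58.2, fasted rats 123.9, 105.7, 39.0, 35.6 and 64.6, and dehydrated rats 1863.5, 1473.7, 141.9 and 195.8. All 4 dehydrated arrays were above all 5 fasted arrays, and 2 of them overlapped the controls.

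**Figure D1:**
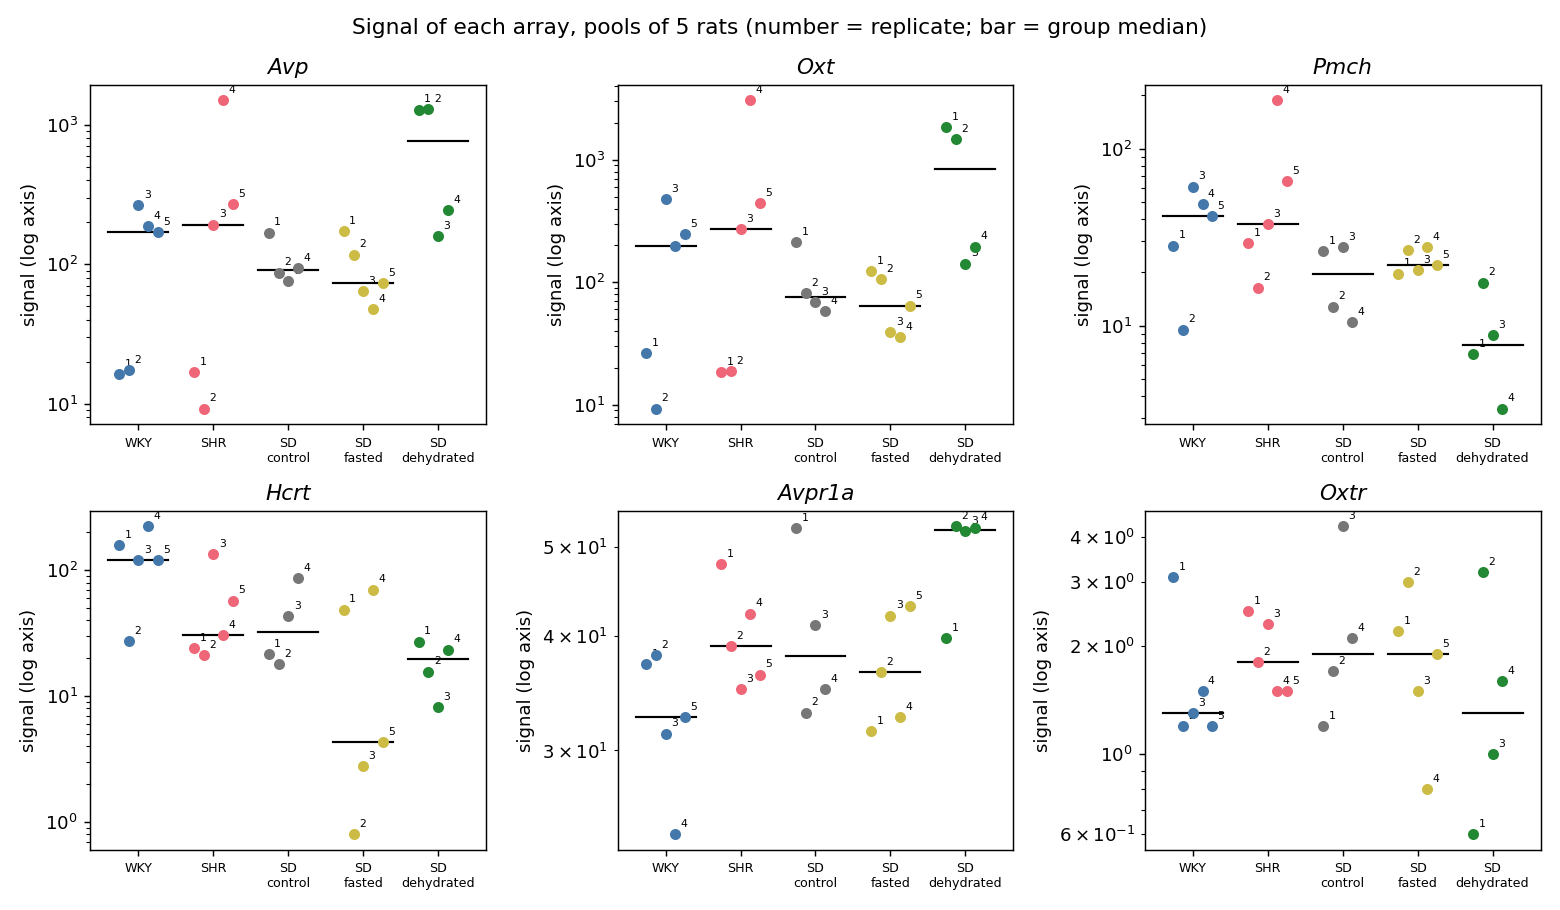
Signal of each gene on each array (vertical log axis, arbitrary intensity units) for the 5 groups; numbers are replicates and bars group medians. Avp and Oxt are low on arrays 1 and 2 of both strains, SHR array 4 is the highest for Avp at 1497.3 and Oxt at 3062.4, and dehydrated arrays 1 and 2 lie far above the controls for both.

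The spread between pools of one group was wider for Oxt and Avp than for any other probe set with a mean signal above the 40th percentile. The standard deviation of log2(signal + 16) within groups was 1.78 for Oxt, rank 1 of 18625, and 1.53 for Avp, rank 2. The next was 1.48, for the choroid plexus transcript Ttr, and the median was 0.16 with a 99th percentile of 0.40. Hcrt had 0.86, rank 11, and Avpr1a 0.16, rank 9006, which is the median. Pmch with 0.60 and Oxtr with 0.07 lay under the 40th percentile, a mean signal of 28.0, and have no rank. Oxt, Avp and Hcrt thus varied between pools more than nearly all other transcripts past this limit, and Avpr1a did not. The genes were picked from earlier results on the same arrays, so their ranks are a description and support nothing.

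**Figure D2:**
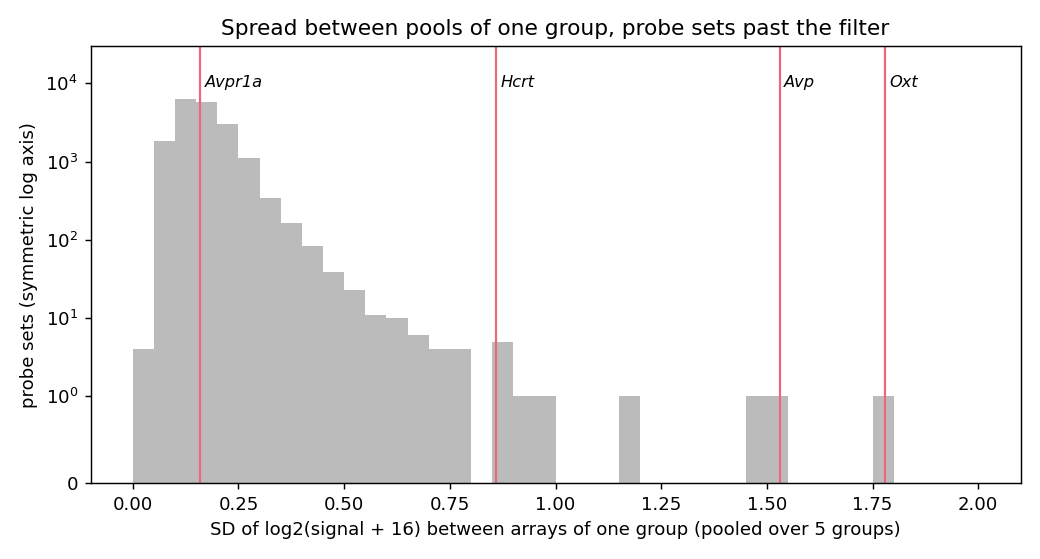
Histogram of the within-group standard deviation of log2(signal + 16), pooled over the 5 groups, for 18625 probe sets (vertical symmetric log axis, number of probe sets). Lines mark Avpr1a at 0.16, Hcrt at 0.86, Avp at 1.53 and Oxt at 1.78.

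Avp and Oxt varied together from pool to pool. Over the 23 arrays their log2 levels had a Pearson r of 0.98 and a Spearman coefficient of 0.96. The value was 0.99 on the 10 strain arrays and 0.99 on the 13 Sprague Dawley arrays. After the group means were removed it was also 0.99. The strain arrays fell into separate clusters of 4 low and 6 higher arrays; within the 6 whose Avp signal was above 100, r was 0.99 and the Spearman coefficient 0.89. Without the 2 bright dehydrated arrays, r over the other 11 Sprague Dawley arrays was 0.94. The points share arrays, dissections and scaling. The neurophysin parts of the 2 transcripts are known to be nearly identical in sequence, and cross-hybridisation between the probe sets was not tested.

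Over all 23 arrays no other gene past the filter came close to this match. On the strain arrays alone others did, with an r with Avp of 0.98 for Sst and 0.92 for Pmch. Of 10417 other genes past the filter, read by 1 probe set each, the 99th percentile of r with Avp over all arrays was 0.54. After Oxt the closest in level were Arhgap5 with r = 0.80, Slc7a6os with 0.76, Coa8 with 0.75 and Klhl15 with 0.74. Their signals moved little: Arhgap5 stayed between 133.9 and 232.5 over all 23 arrays. For deviations from the group means the next after Oxt among these genes was Fbh1, a DNA helicase, with 0.81. Pmch, which lay under the filter and was not ranked, had 0.82. The genes closest to Oxt after Avp were Arhgap5 and Sugt1, each with 0.76, then Klhl15 with 0.75 and Coa8 with 0.70.

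**Figure D3:**
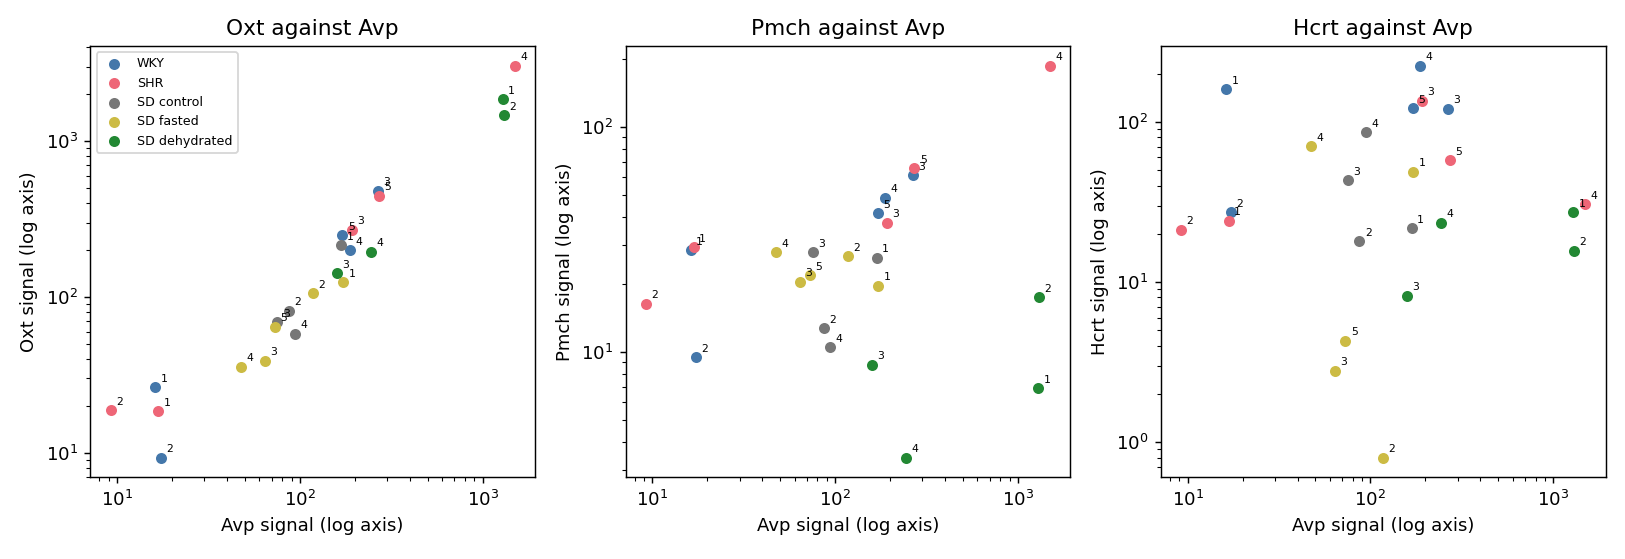
Oxt, Pmch and Hcrt signal against Avp signal on the 23 arrays (both axes log, arbitrary intensity units), coloured by group and numbered by replicate. Oxt follows Avp in all groups (r = 0.98), Pmch follows it among strain arrays (r = 0.92) and not among Sprague Dawley arrays (r = -0.45), and Hcrt shows no overall relation.

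Pmch, the precursor of melanin-concentrating hormone, was dim on most arrays. WKY read 28.3, 9.5, 61.0, 48.5 and 41.4, and SHR 29.3, 16.4, 37.5, 187.2 and 65.4. SHR array 4, the array with the highest Avp and Oxt, also had the highest Pmch, and array 2 was the lowest of each strain. Controls read 26.3, 12.8, 27.8 and 10.5, fasted rats 19.7, 26.6, 20.5, 27.7 and 21.9, and dehydrated rats 6.9, 17.5, 8.8 and 3.4. Every dehydrated array lay below every fasted array and 3 of the 4 lay below every control. These values are near the bottom of the scale, where background makes up much of a signal.

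The relation of Pmch to Avp differed between the sets of arrays. Over 23 arrays r was 0.30 and the Spearman coefficient 0.19. On the strain arrays r was 0.92 and the Spearman coefficient 0.89, and it was 0.84 without SHR arrays 4 and 2. Among the 6 strain arrays with Avp above 100, r was 0.99 and the Spearman coefficient 0.83. On the Sprague Dawley arrays r was -0.45 and the Spearman coefficient -0.59, where the dehydrated group combined high Avp with low Pmch, and within these groups r was 0.29. The difference between the sets was not tested. With Oxt, Pmch had an r of 0.94 on the strain arrays and -0.40 on the Sprague Dawley arrays. Oxt at 0.83 and Avp at 0.82 were the 2 closest genes to Pmch once group means were removed. By level they were not, and Ankrd46 led with 0.76, ahead of Myt1l, a neuronal zinc finger factor, with 0.75.

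Hcrt, the orexin precursor, did not follow the other peptides. WKY read 159.6, 27.3, 120.9, 224.6 and 121.4, and SHR 24.2, 21.2, 135.4, 30.6 and 57.6. WKY arrays other than array 2 were high, and SHR array 3 alone reached their range. Controls read 21.7, 17.9, 43.2 and 86.3, fasted rats 48.7, 0.8, 2.8, 70.2 and 4.3, and dehydrated rats 27.2, 15.7, 8.2 and 23.5. Fasted rats held both some of the higher and the 3 lowest values of the Sprague Dawley arrays. The correlation of Hcrt with Avp was 0.00 over 23 arrays, 0.24 on the strain arrays and -0.06 on the Sprague Dawley arrays. Among the 6 strain arrays with Avp above 100 it was -0.84, with the Spearman coefficient -0.83. SHR array 4, first for Avp, Oxt and Pmch, was the median of its group for Hcrt.

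The genes whose level ran closest to Hcrt were Tmem212 (r = 0.90), Dynlrb2, a light chain subunit of dynein (0.85), Cfap144, a cilia and flagella protein (0.81), Bbox1, the last enzyme of carnitine synthesis (0.81), and Lgals3, galectin-3 (0.80). The 99th percentile over 10417 genes was 0.64. With group means removed the leaders were Dynlrb2 with 0.90 and Cfap144 with 0.86, followed by Spmip6, Tmem212 and the mitotic kinase Aurkb with 0.84 each. A list of 20 genes of ciliated and ependymal cells was drawn up after this was seen, and it contains some of these same genes, so it supports nothing independently. Of its 14 measured genes, 14 had an r above 0 with Hcrt and 11 had an r above 0.6, from 0.04 for Tppp3 to 0.90 for Tmem212, with a median of 0.70. The mean log2 level of the 14 had an r with Hcrt of 0.88 on the strain arrays, 0.85 on the Sprague Dawley arrays and 0.91 within groups, and of 0.14 with Avp over all arrays. Foxj1, the master regulator of motile cilia, read 54.4 to 122.7. The summed signal of the list was 957.5 to 1672.5 in WKY, 1184.9 to 2097.2 in SHR, 990.7 to 1477.2 in controls, 908.0 to 1550.3 in fasted and 1141.6 to 1404.7 in dehydrated rats. Ak7, Mlf1 and Meig1 of the list lay below the filter, with lowest signals of 1.4, 1.1 and 0.9. The part of these cells in the Hcrt signal was not tested.

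**Figure D4:**
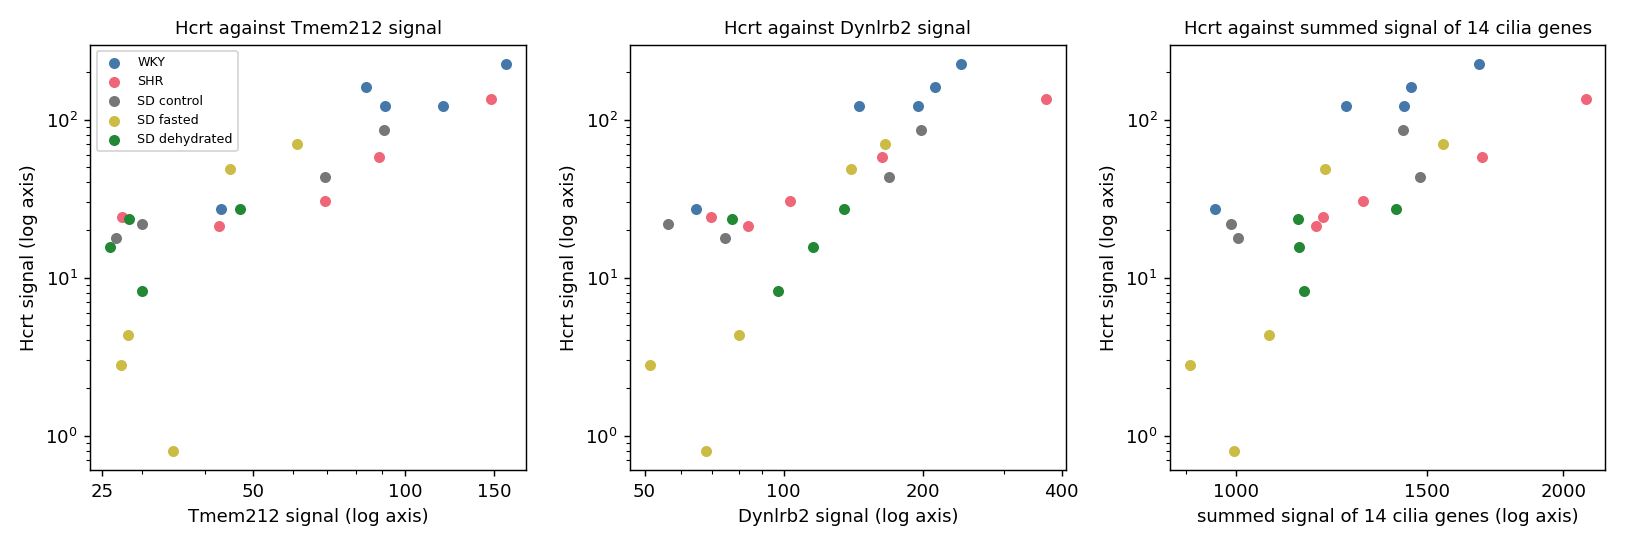
Hcrt signal (vertical log axis) against the signal of Tmem212, of Dynlrb2 and of the summed 14 cilia genes (horizontal log axes) on 23 arrays, coloured by group. Hcrt is high where these signals are high in the strain and in the Sprague Dawley arrays, with r = 0.90 for Tmem212 and 0.85 for Dynlrb2.

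Hcrt also ran against the markers of the area postrema on the strain arrays, where the mean log2 level of the 12 measured markers had an r of -0.91 with it. On the Sprague Dawley arrays that value was 0.06, and over all arrays with group means removed it was -0.34. Astrocyte markers had an r of 0.63 with Hcrt over all arrays and 0.61 with group means removed. For microglial markers these values were 0.62 and 0.04.

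The vasopressin receptor varied less between pools than the peptides. Avpr1a, the V1a vasopressin receptor, which signals through Gq and calcium, read 37.3, 38.1, 31.3, 24.3 and 32.6 in WKY and 47.9, 39.0, 35.0, 42.3 and 36.3 in SHR. Controls read 52.4, 33.0, 41.1 and 35.0, fasted rats 31.5, 36.5, 42.1, 32.6 and 43.1, and dehydrated rats 39.8, 52.7, 52.0 and 52.5. Dehydrated arrays 2 to 4 were close together and above all fasted arrays, dehydrated array 1 was not, and control array 1 lay among the higher values. Avpr1a ran against Hcrt with an r of -0.65 over 23 arrays, -0.80 on the strain arrays and -0.41 on the Sprague Dawley arrays. The last fell to -0.17 without control array 4 and fasted array 4. The genes closest to Avpr1a were Hmgn3, a nucleosome-binding protein (0.68), and Stom, Tm4sf1 and the calcium-sensing receptor Casr, a marker of the area postrema (0.65 each).

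Oxtr, the oxytocin receptor, was at the floor. Its signal was 0.6 to 4.3 over all 23 arrays, between the 1.1th and the 11.3th percentile of an array. No difference between groups can be read at that level, and a probe set that reads low does not show that the RNA is absent.

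By mean log2 level, dehydrated rats were first and SHR next for both Avp (9.05 and 7.22) and Oxt (9.11 and 7.76), where the SHR mean includes the bright array 4. Fasted rats and WKY were level at 6.68 for Avp, and fasted rats were last for Oxt at 6.37. For Pmch the order began with SHR at 6.05 and WKY at 5.65 and ended with dehydrated rats at 4.62. For Hcrt it began with WKY at 7.0 and SHR at 5.91 and ended with fasted rats at 5.02. For Avpr1a dehydrated rats led with 6.02 and WKY came last with 5.60. In every one of these orders, each group overlapped its neighbour in its arrays.

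The 10 strain arrays were used to ask how the hypertensive strain differs from its control. The difference SHR minus WKY of log2(signal + 16) was 0.54 with a standard error of 1.27 for Avp and 0.80 (SE 1.46) for Oxt. Without SHR array 4 these became -0.29 and -0.16, so that 1 pool set the direction. Pmch differed by 0.40 (SE 0.51), and by 0.00 without that array. Hcrt was lower in SHR, at 53.8 ± 47.8 (SD, n = 5) against 130.8 ± 71.6 (n = 5), a difference of -1.09 (SE 0.55), which lay between -1.49 and -0.87 when any array was left out. Avpr1a differed by 0.21 (SE 0.11) and Oxtr by 0.02. Of the 6 genes 5 passed the filter and 0 were called by limma at an adjusted p below 0.05, with 0 at an unadjusted p below 0.05. Of all 18625 probe sets 942 were called, 5.06 percent, and 17.2 percent had an unadjusted p below 0.05. None of the 6 had arrays that did not overlap between the strains, against 6.33 percent of all probe sets.

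The ratio of the 3' to the 5' control probe sets of Gapdh, a measure of RNA integrity and amplification, was 0.405 in log2 units on SHR array 4, the highest of the strain arrays. With that ratio as a covariate the strain difference was -0.71 for Avp, -0.65 for Oxt and -0.12 for Pmch. Over all arrays the ratio ran from 0.031 to 0.68, the latter on dehydrated array 2, one of the arrays with bright Avp, while control array 2 had 0.571 with an Avp signal of 87.0. With the covariate, dehydrated minus control was 2.0 for Avp and 2.12 for Oxt.

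The 13 Sprague Dawley arrays were fitted together to ask how loss of food and loss of water differ from the control state. The fasted and the dehydrated comparisons share the same 4 control arrays. Fasted minus control was -0.20 (SE 0.64) for Avp, -0.40 (SE 0.78) for Oxt, -0.08 (SE 0.13) for Avpr1a, 0.18 (SE 0.18) for Pmch and -0.70 (SE 0.47) for Hcrt. Without control array 1, Avp differed by 0.02 and Oxt by -0.04, and with control arrays 3 and 4 alone by 0.03 and 0.06, so neither direction held. Hcrt ran from -1.05 (without fasted array 4) to -0.38 (without control array 4), and was -1.26 with control arrays 3 and 4 alone. Avp, Oxt and Avpr1a passed the filter, and limma called 0 of the 6 genes, with 0 at an unadjusted p below 0.05. The share called among all probe sets was 0.0215 percent, and 7.19 percent had an unadjusted p below 0.05. All 6 genes overlapped between these groups, against 2.32 percent of probe sets that did not.

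Avp and Oxt had higher means in dehydrated rats than in controls, carried mostly by 2 of the 4 dehydrated pools. Dehydrated minus control was 2.17 (SE 0.67) for Avp, 4.50-fold on the log2(signal + 16) scale, at 747.3 ± 630.8 (SD, n = 4) against 106.2 ± 42.2 (n = 4). For Oxt it was 2.34 (SE 0.82), 5.07-fold, at 918.7 ± 880.6 against 105.8 ± 72.9. When 1 array was left out, the Avp difference stayed between 1.73 and 2.70 and the Oxt difference between 1.75 and 2.94. Over the other settings, with control arrays 3 and 4 alone among them, Avp ran from 1.84 to 2.40 and Oxt from 1.98 to 2.80. Pmch differed by -0.49 (SE 0.19), Hcrt by -0.64 (SE 0.50), Avpr1a by 0.22 (SE 0.13) and Oxtr by -0.06. Limma called 0 of the 6 genes, of which Avp, Oxt and Avpr1a passed the filter. Avp, Oxt and Pmch had an unadjusted p below 0.05, as did 11.7 percent of the probe sets past the filter, which Pmch did not pass. Since the genes were picked from results on the same arrays, setting them beside that share tests nothing. The share called at the adjusted threshold was 0.166 percent. With all 23 arrays in 1 model, 0 of the 6 had an unadjusted p below 0.05. All 6 genes overlapped between the groups, where 6.68 percent of probe sets did not. In the same comparison the median difference of the markers of fibroblasts and meninges was -0.29, with 5 of 8 at an unadjusted p below 0.05 and 0 called by limma. That of choroid plexus markers was 0.43, with 0 of 4 at that level and 0 called, and their summed signal ran from 637.1 to 8657.7 in dehydrated rats and from 541.0 to 7167.8 in controls. The part of these cells in the Avp and Oxt values was not tested.

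Against fasted rats, the dehydrated group differed by 2.37 (SE 0.64) for Avp, 2.74 (SE 0.78) for Oxt, 0.29 (SE 0.13) for Avpr1a, -0.67 (SE 0.18) for Pmch and 0.06 (SE 0.47) for Hcrt. Oxt was higher on all 4 dehydrated arrays, as 1.32 percent of probe sets past the filter were, and Pmch, which did not pass it, was lower on all 4, as 1.91 percent were. The other 4 genes overlapped, and non-overlap in either direction was seen in 3.23 percent. Limma called 0 of the 6 genes, of which 3 passed the filter. An unadjusted p below 0.05 was seen for 4 of the 6, against 10 percent of the probe sets past the filter. No share over all probe sets tests these genes, which were picked from results on the same arrays. The share called was 0.0322 percent.

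**Figure D5:**
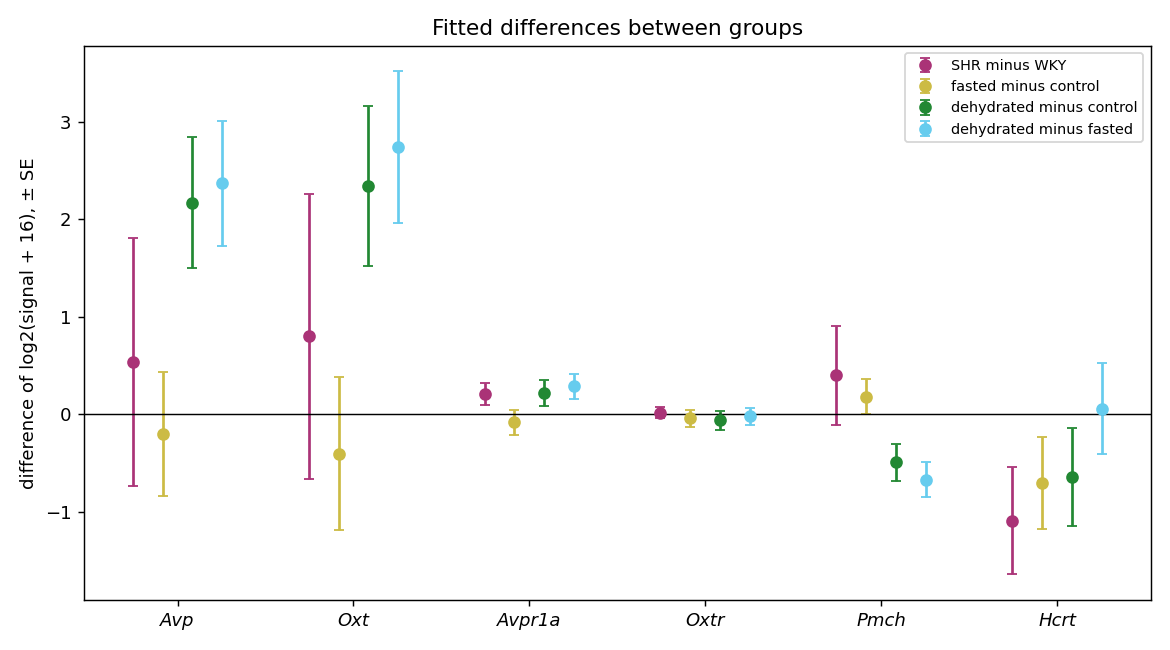
Fitted differences of log2(signal + 16) for the 6 genes in 4 comparisons; points are estimates and bars 1 standard error. Avp and Oxt differ by 2.17 and 2.34 between dehydrated rats and controls, with standard errors of 0.67 and 0.82, and their strain differences of 0.54 and 0.80 are smaller than their standard errors.

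A list of 24 genes that act with vasopressin and oxytocin, namely further receptors, processing enzymes, granule proteins, transcription factors of the neurons and G protein signalling genes, had 21 measured and 13 past the filter. In SHR against WKY 0 rose and 1 fell, with a list median of 0.02 against 0.01 for all probe sets. The gene that fell was Pam, the enzyme that amidates the carboxyl end of both peptides and of many others. It read 794.1 ± 26.7 (SD, n = 5) in SHR and 903.3 ± 30.4 (n = 5) in WKY, a log2 difference of -0.18 (SE 0.05; limma, adjusted p = 0.0406), and all SHR arrays were below all WKY arrays. The call did not hold when any array other than SHR array 2 was left out, with an adjusted p of 0.0522 to 0.109 and a difference of -0.20 to -0.17. Nor did it hold with the Gapdh ratio as a covariate (-0.16, adjusted p = 0.111) or with all 23 arrays in 1 model (-0.18, adjusted p = 0.0571). No gene of the list passed in the other 3 comparisons by limma; 1, 5 and 2 of the 13 had an unadjusted p below 0.05 in fasted and dehydrated rats against controls and in dehydrated against fasted rats, beside 7.19, 11.7 and 10 percent of all probe sets. In SHR against WKY 3 of the 13 did, beside 17.2 percent. The developmental factors of these hypothalamic neurons read low everywhere: Sim1 0.5 to 14.7, Otp 0.6 to 11.0 and Pou3f2 0.8 to 2.3. The vasopressin receptors Avpr2 and Avpr1b were dim too, at 6.9 to 30.0 and 6.0 to 27.9.

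A list of 10 genes around melanin-concentrating hormone and the orexins had 8 measured, of which 4 passed the filter on the strain arrays and 3 on the Sprague Dawley arrays. The orexin receptors Hcrtr1 and Hcrtr2 read 5.6 to 45.8 and 1.4 to 15.9, and the receptor Mchr1 read 1.2 to 28.9. In SHR against WKY 1 gene rose and 0 fell, with a median of 0.05. This was Cartpt, the precursor of CART peptide, which neurons of the lateral hypothalamus and of many other regions make. It read 2033.1 ± 156.2 (n = 5) in SHR and 1447.7 ± 46.9 (n = 5) in WKY, a difference of 0.48 (SE 0.06; limma, adjusted p = 2.2e-05), without overlap. No gene of the list passed by limma in the Sprague Dawley comparisons. An unadjusted p below 0.05 was seen for 0, 2 and 2 of the 3 past the filter, beside 7.19, 11.7 and 10 percent of all probe sets. Cartpt itself read 2422.1 ± 249.2 in controls and 1789.4 ± 296.1 in dehydrated rats (-0.44, SE 0.14; adjusted p = 0.214).

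A list of 19 other hypothalamic peptides had 15 measured and 7 past the filter. In dehydrated rats against controls 1 rose and 0 fell, with a median of 0.17 against -0.01 for all probe sets. Nmu, neuromedin U, a peptide that lowers food intake, read 183.7, 170.5, 152.2 and 179.7 in dehydrated rats and 86.4, 127.7, 117.6 and 87.1 in controls. The groups did not overlap, and the difference was 0.65 (SE 0.11; limma, adjusted p = 0.0164). The adjusted p was 0.0663 without control array 1, 0.109 without control array 4, 0.0696 without dehydrated array 1 and 0.0582 without dehydrated array 2. With control arrays 3 and 4 alone it was 0.147. No gene of this list passed in the other comparisons by limma. In each, 1 of the 7 had an unadjusted p below 0.05, beside 17.2 percent of all probe sets in SHR against WKY. For fasted rats against controls and dehydrated against fasted rats the shares were 7.19 and 10 percent.

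Crh, corticotropin-releasing hormone, was below the filter and separated the dehydrated group nonetheless. It read 31.1, 27.1, 26.9 and 32.0 in dehydrated rats, 11.1, 13.4, 14.1 and 9.5 in controls, and 6.8, 14.1, 11.3, 13.6 and 10.1 in fasted rats. All dehydrated arrays were higher than all controls and fasted arrays. WKY read 10.3, 15.7, 22.3, 16.5 and 14.2 and SHR 14.5, 10.6, 9.1, 39.8 and 14.4, so that SHR array 4, the brightest for Avp, was also the highest of all 23 arrays for Crh. The r of Crh with Avp was 0.71 on the strain arrays and 0.69 on the Sprague Dawley arrays. Without the filter the difference from controls was 0.69 (SE 0.14; limma, adjusted p = 0.0891) and from fasted rats 0.74 (SE 0.13; adjusted p = 0.0918), so neither passed. Crh was named after its values were seen.

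Sst and Pdyn were likewise named after their values were seen. Sst, somatostatin, read 122.2, 111.9, 197.6, 195.2 and 193.8 in WKY and 130.4, 101.2, 199.6, 370.2 and 182.2 in SHR, low on arrays 1 and 2 and highest on SHR array 4 as Avp was. Its r with Avp was 0.98 on the strain arrays and 0.25 on the Sprague Dawley arrays. Pdyn, prodynorphin, a peptide precursor that vasopressin neurons also make, had an r with Avp of 0.87 on the strain arrays and 0.59 on the Sprague Dawley arrays, and read 201.8 on SHR array 4 and 80.8 on WKY array 1. The mean log2 level of the list that holds Crh and Sst had an r with Avp of 0.68 on the strain arrays. It was 0.32 on the Sprague Dawley arrays and 0.12 over all arrays. For the list that holds Pdyn these values were 0.44, 0.36 and 0.23. Single genes of the 2 lists differed widely. On the strain arrays their r with Avp ran from -0.64 for Mchr1 to 0.98 for Sst, with -0.51 for Npvf, -0.05 for Npy and 0.63 for Nmu.

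Genes that mark the hypothalamus and the pituitary were looked at in the same way. Of 15 regional transcription factors of the hypothalamus 7 were measured, 0 passed the filter, and the highest signal of any was 34.8, for Rax, a factor of the hypothalamic floor. Their summed signal was 78.7 to 107.5 in WKY, 92.9 to 139.5 in SHR, 85.5 to 101.1 in controls, 70.5 to 124.0 in fasted and 68.2 to 96.8 in dehydrated rats. The highest sum of the 23 arrays, 139.5, was on SHR array 4, which was also the brightest for Avp, Oxt, Pmch and Sst, and the next was 124.0 on fasted array 5. Dehydrated arrays 1 and 2, also bright for Avp and Oxt, had sums of 72.6 and 71.9, places 20 and 21 of 23. Their mean log2 level had an r with Avp of 0.45 on the strain arrays and -0.38 on the Sprague Dawley arrays. Rax separated the strains, at 33.2, 30.8, 24.9, 24.9 and 25.7 in SHR and 13.3, 6.9, 11.8, 2.3 and 4.4 in WKY. All SHR arrays were above all WKY arrays, and without the filter the difference was 0.91 (SE 0.14; limma, adjusted p = 0.00232). Its r with Avp on these arrays was -0.05. The strain difference of Rax was singled out after its values were seen. Of 10 pituitary genes 9 were measured and 3 passed the filter, none above 78.5, and limma called 0 in any comparison. Of the 3, an unadjusted p below 0.05 was seen for 1 in SHR against WKY, beside 17.2 percent of all probe sets. For fasted and dehydrated rats against controls and dehydrated against fasted rats it was 0, 1 and 1, beside 7.19, 11.7 and 10 percent. Whether RNA of another region was present in the bright pools was not tested.

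Among the marker lists of resident cell types, limma called genes only in SHR against WKY. There 2 of 7 filtered microglial markers fell, Aif1 and C1qa, and 3 of 8 of fibroblasts and meninges fell, Col1a2, Fmod and Igf2. An unadjusted p below 0.05 was seen for 6 of the 7 and 5 of the 8, beside 17.2 percent of all probe sets. The median differences were -0.29 and -0.24. Their part in the strain values of the peptides was not tested. In fasted rats against controls 3 of 8 fibroblast and meningeal markers had an unadjusted p below 0.05, beside 7.19 percent of all probe sets. Of these markers 0 were called by limma. No marker of neurons, astrocytes, oligodendrocytes, endothelium, choroid plexus or area postrema neurons was called in any of the 4 comparisons. At most 3 genes of such a list had an unadjusted p below 0.05 in one comparison. These were 3 of 11 area postrema markers in dehydrated against fasted rats, beside 10 percent of all probe sets. Of the ciliated cell list 1 gene rose in SHR, Tppp3, a tubulin-binding protein, at 738.8 ± 56.2 (n = 5) against 514.4 ± 36.8 (n = 5, limma, adjusted p = 6.7e-05). By level Tppp3 was the gene of the list least correlated with Hcrt (r = 0.04), but with group means removed its r was 0.55. In the Sprague Dawley comparisons limma called 0 of that list. An unadjusted p below 0.05 was seen for 0, 1 and 0 of its 11 genes past the filter, beside 7.19, 11.7 and 10 percent of all probe sets.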

How the data were processed

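The authors deposited 1 linear intensity for each probe set on each array. The submitters' processing notes name GCOS 1.2, software of the array maker, and its settings were not given in the sources used. The mean after removing 2 percent of values at each end was 100 on every array, so no further normalization was applied. RNA was purified on columns and amplified with a MessageAmp II kit, per the labels' protocols. Because signals near the floor carry background, differences of dim genes are compressed.

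Of 31099 probe sets 57 are Affymetrix controls; 20826 of the rest have 1 symbol, 436 several and 9780 none. Signals were transformed as log2(signal + 16), and folds on that scale understate ratios at low signal. Probe sets below the 40th percentile of the mean were left out, which kept 18625. Groups were compared with limma 3.58.1 in R 4.3.3 (lmFit, eBayes with trend and robust, two-sided, Benjamini-Hochberg over all probe sets kept, threshold 0.05), SHR and WKY on 10 arrays and the Sprague Dawley groups on 13 arrays in 1 model. Values for genes below the filter came from the same model without it. The procedure was tested on simulated data. Correlations and motif counts were made in Python 3.11.15 (pandas 2.3.3, numpy 2.4.6, scipy 1.17.1), and plots with matplotlib 3.10.9.

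The 6 genes and the lists were chosen with earlier results of these data known. The naming rule takes the 6 genes, the 5 genes most correlated with each of them by level and by deviation from group means (each gene by its brightest probe set), and up to 3 called genes of each list; Crh, Sst, Pdyn and Rax, receptors, transcription factors and list markers with their ranges were named outside it. Lists were taken from general knowledge; the ciliated cell list was added after the data were seen. Each array is a pool, and no label says that pools share nothing else, so p-values measure only the spread between these pools, and the number of arrays limits the precision. The fits were repeated after quantile normalization, with pseudocounts of 1 and 64, without the filter, on all 23 arrays together, with a block for the replicate number, with the Gapdh ratio as a covariate, with only control arrays 3 and 4, whose label text matches that of the other Sprague Dawley arrays, and without each array in turn. Positions of probe sets are not given, since probe sequences were not used here.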

Additional observations from a re-analysis of the deposited data

Results flagged for a closer look

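Each gene's signal was compared with the rest of its group by the gap of its highest or lowest array to the nearest one, divided by the range of the group. Of 30 groups tested on the linear signal, 6 had a gap beyond the 95 percent limit. That limit is passed by chance in about 5 percent of groups of normally distributed values, a rate that cannot be carried over to these genes, which were picked for their spread on the same arrays. On log2(signal + 16) only 2 groups passed it, the Avpr1a and Oxtr cases given here. SHR array 4 stood apart for 3 genes: Avp at 1497.3 (gap over range 0.824), Oxt at 3062.4 (0.86) and Pmch at 187.2 (0.713, against a limit of 0.71). On the log2 scale these gaps were 0.406, 0.422 and 0.498, under the limit. Oxt was high on control array 1, at 214.2 (0.85). Avpr1a was low on dehydrated array 1, at 39.8 (0.945). Oxtr on WKY array 1 was 3.1 (0.832), which is at the floor of the scale. The flags of Avp, Oxt and Pmch on SHR array 4 are not independent, since these RNAs moved together across the strain arrays, and the bright dehydrated arrays 1 and 2 cannot be flagged this way because they lie near each other.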

How the results depend on the processing

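No setting called any of the 6 genes in any comparison. With the filter, 4 or 5 of them were tested between the strains and 3 or 4 between the Sprague Dawley groups. The others could not be called there, and only the fit without the filter tested all 6. Of 474 differences of these genes under alternatives, 466 moved by less than 1 standard deviation between pools of the compared groups. That limit is loose for Avp and Oxt, whose standard deviations in SHR were 2.43 and 2.74. Under it the strain differences of Avp, 0.54, and Oxt, 0.80, counted as unmoved at -0.71 and -0.65 with the Gapdh covariate. Some settings, such as the fit without the filter, cannot move a difference. The count is therefore no measure of stability. The 8 that moved further all came from other pseudocounts at dim genes: with a pseudocount of 1, Hcrt fasted minus control became -1.77 and Pmch -1.08 and -1.43 in dehydrated against control and fasted rats, the latter -0.26 with 64, and Oxtr took values of 0.16, -0.19, -0.38 and -0.19. The correlation of Avp with Oxt stayed between 0.97 and 0.98 when any array was left out. That of Avp with Pmch, 0.30, was 0.19 with a pseudocount of 1, 0.05 without the 2 arrays farthest from the median of Avp, 0.82 for deviations from group means, 0.92 on strain arrays and -0.45 on Sprague Dawley arrays, and 0.00 (without SHR array 4) to 0.46 (without dehydrated array 1) with 1 array left out; the cause was not tested. That of Avp with Hcrt, 0.00, was 0.11 without the 2 arrays farthest from the median of Avp, 0.26 for deviations and 0.24 on strain arrays, and -0.05 to 0.11 with 1 array left out. Same-numbered arrays did not pair throughout. In the strains r of their deviations was 0.00 to 0.28, and 2 of 5 correlated best with their own number. These were arrays 1 (0.16) and 2 (0.28), the arrays low for Avp and Oxt in both strains. In the Sprague Dawley groups r was -0.17 to 0.06. There dehydrated array 2 correlated best with array 2 of the controls and of the fasted rats (0.05 each). With the replicate block limma called 0 of the 6 genes, and of all probe sets 1073 against 942 in SHR minus WKY, 3 against 4 in fasted minus control, 15 against 31 in dehydrated minus control and 1 against 6 in dehydrated minus fasted. Other settings gave 698 to 966, 0 to 5, 2 to 74 and 2 to 8 calls, and leaving out 1 array 741 to 1012, 2 to 6, 9 to 56 and 2 to 10; the lowest Sprague Dawley counts against controls came with 2 control arrays only. Cartpt passed in 18 of 18 settings, Nmu in 17 of 22 and Pam in 6 of 18; with the replicate block Pam had an adjusted p of 0.0546 (limma). With 4 or 5 pools a group, depth of signal limits Oxtr and Pmch, which lie near the floor.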
